A study of Mus musculus with 12 samples.

Results

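Messenger RNAs of 55 enzymes that break down amino acids were compared between livers of mice given saline and livers of mice given LNA29, a mixture of locked nucleic acid inhibitors of miR-29. The 55 genes were chosen by function, sorted into 13 groups by amino acid, and looked up by symbol in the deposited table of 21705 genes. Each was found once, and all 55 were among the 12486 genes tested. LNA29 combined an inhibitor of miR-29a with an inhibitor of miR-29b and miR-29c at 20 mg/kg each, given by tail vein to female C57BL/6J mice of 10 to 12 weeks. The saline mice had the same strain, sex and age, carried no altered allele, and both groups of 6 were fasted overnight before their livers were taken on day 7. No livers given a control oligonucleotide were analysed here, so loss of miR-29 and the presence of an oligonucleotide cannot be told apart. Each library is the bulk RNA of one liver, in which fewer cells of a type and less RNA per cell cannot be told apart.

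The liver is the main site where surplus amino acids are taken apart. The amino group is passed on to urea synthesis, and the carbon skeletons enter gluconeogenesis, ketone formation or the citric acid cycle. In a fasted animal these skeletons are a main source of new glucose. Several of the pathways also feed 1-carbon groups into the folate and methionine cycles, tryptophan supplies NAD, and cysteine supplies taurine. Many of the enzymes are held to the periportal or the pericentral zone of the liver lobule, and Tat, Tdo2 and Sds are classic genes induced by glucocorticoids, glucagon or fasting.

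The deposited values are reads per gene, scaled so that among genes with reads the upper quartile is 1000 in each liver. Depth ran from 7696094 to 19062446 reads per liver, and 1 read was worth between 9.80 and 24.4 in the scaled unit. Albumin took 35.7% to 46.9% of the reads, which fits the labelled tissue. Of 4 matrix genes that miR-29 is known to repress, Sparc, Eln and Col3a1 had their 6 LNA29 livers above the 6 saline livers (limma adjusted p = 4.62e-05, 0.0224 and 0.0438), and Col1a1 had a log2 fold change of 0.70 (SE 0.37, adjusted p = 0.688). Among the 55 genes, LNA29 replicate 48 and saline replicates 47 and 49 lay farthest from the other livers of their groups, with a median absolute log2 deviation of 0.491, 0.380 and 0.368 from the mean of the other 5, where the other 9 livers had at most 0.316. Calls that changed without saline replicate 49 and LNA29 replicate 48, a choice made after the data were seen, are given beside the main values, and those that changed without saline replicate 47 are given together. The 55 genes were well covered: 39 had at least 100 reads in every liver, and the lowest count of any of them was 7 reads, for Acmsd.

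No breakdown enzyme passed an adjusted p of 0.05 in limma, while 0.16% of all genes tested did. At an unadjusted p under 0.05, 1 enzyme was higher in LNA29 livers, where 1.95% of all genes were, and 7 were lower, where 5.97% of all genes were. The higher enzyme was Sdsl. The lower enzymes were Afmid and Haao of tryptophan breakdown, Gstz1 of tyrosine breakdown, Shmt2 of the glycine and serine exchange, Sardh of the sarcosine step, Prodh of proline breakdown and Gcdh of lysine and tryptophan breakdown. Livers of the groups did not overlap for Sdsl, on the higher side (0.272% of all genes), and for Gstz1, on the lower side (0.713% of all genes). Estimates were lower in LNA29 livers for 36 of the 55 enzymes (65.5%) and for 61.4% of all genes, and the median log2 fold change was -0.15 for the enzymes and -0.09 for all genes. The 95% interval of 48 of the 55 enzymes excluded a 2-fold change in either direction.

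**Figure D1:**
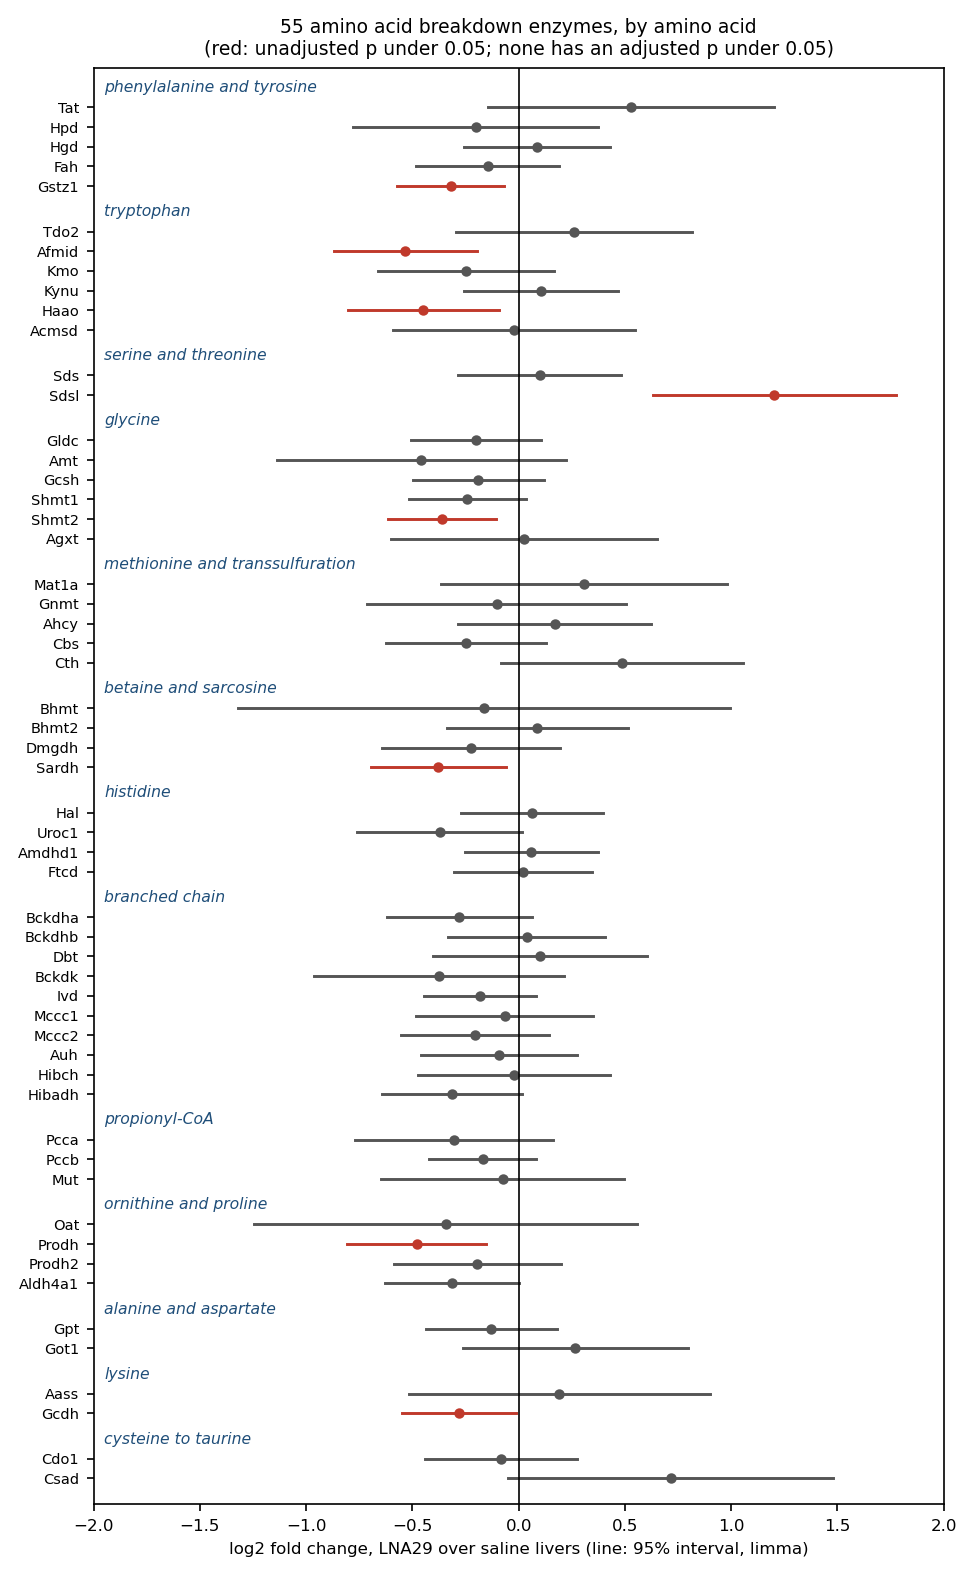
The horizontal axis gives the log2 fold change of LNA29 over saline livers and each line its 95% interval from limma, with the 55 enzymes in rows sorted by amino acid. Sdsl at 1.20 is the only interval far from 0 on the right, the 7 other enzymes in red lie between -0.53 and -0.28, and the widest interval is that of Bhmt, from -1.32 to 0.996.

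The count at an unadjusted p under 0.05 moved with the scaling and with the livers left out. After all livers had been given the same median, 2 enzymes were higher (2.39% of all genes) and 2 lower (4.73%). With the recovered reads scaled by TMM, 3 were higher (2.97% of all genes) and 3 lower (4.22%), namely Sdsl, Cth and Csad against Afmid, Prodh and Shmt2. Without saline replicate 49 and LNA29 replicate 48, 8 were higher (3.51% of all genes) and 14 lower (7.08%), and none had an adjusted p under 0.05. Without LNA29 replicate 48 alone, 13 passed, 4 higher (2.27% of all genes) and 9 lower (6.01%). Without saline replicate 49 alone, 9 passed, where 7.98% of all genes did. Without saline replicate 47, 11 passed, 2 higher (1.88% of all genes) and 9 lower (6.45%), the 3 added being Csad at 0.89, Hibadh at -0.40 and Aldh4a1 at -0.36 on the log2 scale. With array weights 18 passed, 4 higher (2.88% of all genes) and 14 lower (7.9%).

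Serine and threonine are opened by dehydratases that release ammonia and leave pyruvate or a 2-oxo acid. Sdsl, which encodes a serine dehydratase-like enzyme, had the largest difference among the 55 genes. Saline livers lay between 562.5 and 1968 with a median of 1812, and LNA29 livers between 2375 and 4786 with a median of 3353. Every LNA29 liver was above every saline liver, and the lowest saline value, that of replicate 43, was far below the other 5. The means were 1542 ± 554 and 3378 ± 912 (SD, n = 6 each), a ratio of 2.19, with a log2 fold change of 1.20 (SE 0.27, 95% interval 0.63 to 1.78, limma adjusted p = 0.119). The exact permutation p was 0.00216, the smallest that 6 against 6 livers can give. Without saline replicate 43 the log2 fold change was 0.94 (adjusted p = 0.122).

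Some other models put Sdsl past the threshold and others did not. The adjusted p was 0.00490 with DESeq2 on the recovered reads, where 0.745% of all genes passed, and 0.0429 with edgeR without a filter on low counts, where 0.146% passed. It was 0.0703 with edgeR and its filter, and in limma 0.219 at a common median, 0.0983 with TMM scaling and 0.0796 with array weights. With the transcript length trend of each library as a covariate it was 0.00886, where 0.993% of all genes passed. Over all alternatives the log2 fold change lay between 0.94 and 1.30, and the adjusted p between 0.00490 and 0.325. Between 36 and 268 reads per liver stood behind the values of Sdsl.

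Sds, the classic serine dehydratase of the fasted liver, lay between 11349 and 22384 in saline livers with a median of 16908. LNA29 livers lay between 12951 and 23679 with a median of 19096, and the groups overlapped over most of their range. Its log2 fold change was 0.10 (SE 0.18, 95% interval -0.28 to 0.48). Because both genes were measured in the same libraries, their ratio does not depend on the scaling. Sdsl came to between 3.56% and 17.3% of Sds in saline livers with a median of 8.94%, and to between 12.8% and 24.1% with a median of 17.8% in LNA29 livers. The log2 ratio was 1.10 higher in LNA29 livers (exact permutation p = 0.00866), with some overlap. None of the 1239 windows of 50 bases in the Sds transcript was found in that of Sdsl.

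Phenylalanine and tyrosine breakdown runs from tyrosine through homogentisate to fumarate and acetoacetate. Of its 5 enzymes, 1 was lower at an unadjusted p under 0.05 in the main limma test and the others were not called there. Gstz1, which isomerises maleylacetoacetate in the step before the last, lay between 18240 and 22328 in saline livers with a median of 20305. LNA29 livers lay between 14868 and 17822 with a median of 16531, all below the lowest saline liver. The difference was small but even, with a ratio of 0.801, a log2 fold change of -0.32 (SE 0.12, limma adjusted p = 0.453) and an exact permutation p of 0.00216. Its unadjusted limma p was 0.0149 as scaled, and 0.0563 with the same median in all livers.

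Tat, the aminotransferase that opens the pathway and responds to glucocorticoids, varied widely. Saline livers lay between 39859 and 135598 with a median of 69388, and LNA29 livers between 44906 and 174658 with a median of 109098. The log2 fold change was 0.53 (SE 0.32, adjusted p = 0.747). Its unadjusted limma p was 0.117 as scaled, 0.0932 at a common median and 0.0462 with array weights. Count models gave 0.0680 (edgeR), 0.0549 (edgeR without a filter) and 0.0444 (DESeq2). Tat also passed an unadjusted limma p of 0.05 without saline replicate 53 alone and without LNA29 replicate 48 alone. The lowest LNA29 value was that of replicate 48, and without replicates 48 and saline 49 the log2 fold change was 0.79 (unadjusted p = 0.0105, adjusted p = 0.287). Hpd, Hgd and Fah, which act between Tat and the end of the pathway, had log2 fold changes of -0.20, 0.09 and -0.15. Without the same pair of livers Fah was at -0.30 (unadjusted p = 0.0425).

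Tryptophan is opened by Tdo2 and carried through kynurenine towards NAD or glutarate. Of the 6 enzymes, 2 were lower at an unadjusted p under 0.05, both beyond the first step. Afmid, which hydrolyses the formylkynurenine that Tdo2 makes, lay between 3212 and 5047 in saline livers with a median of 4494. LNA29 livers lay between 2366 and 4000 with a median of 3079, and 3 of the 6 were below every saline liver. This gave a log2 fold change of -0.53 (SE 0.16, limma unadjusted p = 0.00373, adjusted p = 0.265, exact permutation p = 0.0130), the largest decrease among the 55. Haao, which opens the ring of hydroxyanthranilate on the way to NAD, lay between 12460 and 24228 with a median of 17280 in saline livers and between 10562 and 17623 with a median of 12157 in LNA29 livers. Again 3 LNA29 livers were below every saline liver, and the log2 fold change was -0.45 (SE 0.17, adjusted p = 0.465, exact permutation p = 0.0303). Over all alternatives its adjusted p ran from 0.0413 with the length covariate to 0.782 with edgeR without a filter. The unadjusted p was above 0.05 at a common median (0.0788), with TMM scaling (0.0535), with edgeR with its filter (0.0523) or without (0.0554) and with DESeq2 (0.0580).

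Tdo2 itself lay between 21474 and 47905 in saline livers with a median of 34490, and between 19113 and 60463 with a median of 42949 in LNA29 livers. The ranges overlapped, with a log2 fold change of 0.26 (SE 0.26). Kmo, Kynu and Acmsd, which hydroxylate kynurenine, cleave it and divert its later products from NAD, had log2 fold changes of -0.25, 0.11 and -0.02. None of these 4 enzymes was called with all livers, and differences between enzymes were not tested. Without saline replicate 49 and LNA29 replicate 48, Tdo2 was at 0.48 (unadjusted p = 0.0486) and Kynu at 0.31 (unadjusted p = 0.0342).

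Glycine is oxidised by the glycine cleavage system, exchanged with serine by the hydroxymethyltransferases, and made from glyoxylate by Agxt. Of the 6 genes, 5 had lower estimates and 1 was called at an unadjusted p under 0.05 in the main limma test. Shmt2, the mitochondrial hydroxymethyltransferase, lay between 5440 and 7667 in saline livers with a median of 7001. LNA29 livers formed a narrow band between 4888 and 5756 with a median of 5215, and 4 of them were below every saline liver. Its log2 fold change was -0.36 (SE 0.12, limma adjusted p = 0.372, exact permutation p = 0.00649). The unadjusted p of Shmt2 was 0.0589 in limma at a common median and 0.0593 with edgeR without a filter. Shmt1, the cytosolic form, had a log2 fold change of -0.24 (SE 0.13) and likewise 4 LNA29 livers below all saline livers.

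Gldc, the decarboxylase of the cleavage system, lay between 3982 and 5984 in saline livers with a median of 5114, and between 3264 and 5612 with a median of 4257 in LNA29 livers. The groups overlapped, with a log2 fold change of -0.20 (SE 0.15). Its partners Amt and Gcsh had log2 fold changes of -0.46 (SE 0.32) and -0.19 (SE 0.15). Agxt had a log2 fold change of 0.03 (SE 0.30), and LNA29 replicate 48 held 37830 where the other 5 LNA29 livers lay between 8488 and 16925. Without that replicate the log2 fold change of Agxt was -0.26, and -0.34 without saline replicate 49 as well.

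Methionine is activated to S-adenosylmethionine by Mat1a, spent by Gnmt and other methyltransferases, and the homocysteine left by Ahcy is passed to cysteine by Cbs and Cth. None of the 5 was called at an unadjusted p under 0.05 in the main limma test, and 4 were without saline replicate 49 and LNA29 replicate 48. Mat1a lay between 279228 and 475778 in saline livers with a median of 352175, and between 198774 and 701244 with a median of 473541 in LNA29 livers. In the LNA29 group 3 of 6 livers exceeded every saline liver and replicate 48 was below them all, with a log2 fold change of 0.31 (SE 0.32). Gnmt lay between 79620 and 220421 with a median of 187615, and between 108342 and 269585 with a median of 132297 in LNA29 livers, with a log2 fold change of -0.10 (SE 0.29). Both extremes came from the 2 livers named above: saline replicate 49 was lowest and LNA29 replicate 48 highest.

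Cth, the lyase that releases cysteine, lay between 8351 and 15490 in saline livers with a median of 10331, and between 8415 and 28100 with a median of 13261 in LNA29 livers. The 2 highest LNA29 livers were replicates 44 and 46, and the log2 fold change was 0.49 (SE 0.27, adjusted p = 0.718). Ahcy and Cbs had log2 fold changes of 0.17 and -0.25. For Cbs, LNA29 replicate 48 at 32340 was the only LNA29 liver above 22918. Without saline replicate 49 and LNA29 replicate 48, Cth was at 0.76 (unadjusted p = 0.00599) and Mat1a at 0.56 (unadjusted p = 0.0353), while Cbs was at -0.44 (unadjusted p = 0.0091) and Gnmt at -0.48 (unadjusted p = 0.0295). The limma adjusted p of these 4 lay between 0.234 and 0.427. Cth passed an unadjusted p of 0.05 also without LNA29 replicate 48 alone (0.0158) or saline replicate 49 alone (0.0491). With all livers its unadjusted limma p was 0.0889 as scaled and 0.0457 at a common median. It was 0.0461 with TMM scaling, 0.0159 with array weights and 0.0166 with the length covariate. Count models gave 0.0347 (edgeR), 0.0174 (edgeR without a filter) and 0.01996 (DESeq2). Without saline replicate 43 or 47 alone the limma p was 0.104 and 0.168. The adjusted p of Cth was at least 0.234 in every alternative.

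Betaine gives a methyl group to homocysteine through Bhmt, and the dimethylglycine left is stripped to sarcosine and glycine by Dmgdh and Sardh. Of the 4 genes 1 was lower at an unadjusted p under 0.05. Sardh lay between 32460 and 42293 in saline livers with a median of 40410, and between 23982 and 40491 with a median of 28891 in LNA29 livers. In the LNA29 group 5 livers were lower than any saline one, and the log2 fold change was -0.38 (SE 0.15, limma adjusted p = 0.498, exact permutation p = 0.0130). The unadjusted limma p of Sardh was 0.0873 at a common median and 0.0707 with TMM scaling. Count models gave 0.0858 (edgeR), 0.118 (edgeR without a filter) and 0.0617 (DESeq2). Bhmt was the most abundant of the 55 per kilobase of transcript. It lay between 533372 and 1650317 in saline livers with a median of 773965, and between 119094 and 1841122 with a median of 932828 in LNA29 livers. The log2 fold change was -0.16 (SE 0.55), and 0.36 without LNA29 replicate 48, the liver with the lowest value. Bhmt2 and Dmgdh had log2 fold changes of 0.09 and -0.23, and that of Bhmt2 was 0.34 (unadjusted p = 0.0215) without saline replicate 49 and LNA29 replicate 48. Bhmt shares 10 of 2441 windows of 50 bases with Bhmt2.

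Proline and ornithine converge on glutamate semialdehyde, which Aldh4a1 oxidises to glutamate. All 4 genes had lower estimates, with a median log2 fold change of -0.33, and 1 was called at an unadjusted p under 0.05 in the main limma test. Prodh, which opens proline breakdown in the mitochondrion, lay between 6047 and 8789 in saline livers with a median of 7837. LNA29 livers lay between 3634 and 7000 with a median of 5662, and 4 of them were below every saline liver. Its log2 fold change was -0.48 (SE 0.16, limma unadjusted p = 0.00654, adjusted p = 0.331, exact permutation p = 0.00649). Aldh4a1 had a log2 fold change of -0.31 (SE 0.15, unadjusted p = 0.0520) and Prodh2, which oxidises hydroxyproline, one of -0.19 (SE 0.19). Oat, the ornithine aminotransferase, lay between 12877 and 31750 in saline livers, against 3868 to 40756 in LNA29 livers, with a log2 fold change of -0.34 (SE 0.43) that was 0.09 without LNA29 replicate 48. Without that replicate and saline replicate 49, Aldh4a1 was at -0.31 (limma unadjusted p = 0.0377) and Prodh2 at -0.43 (unadjusted p = 0.00481).

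**Figure D2:**
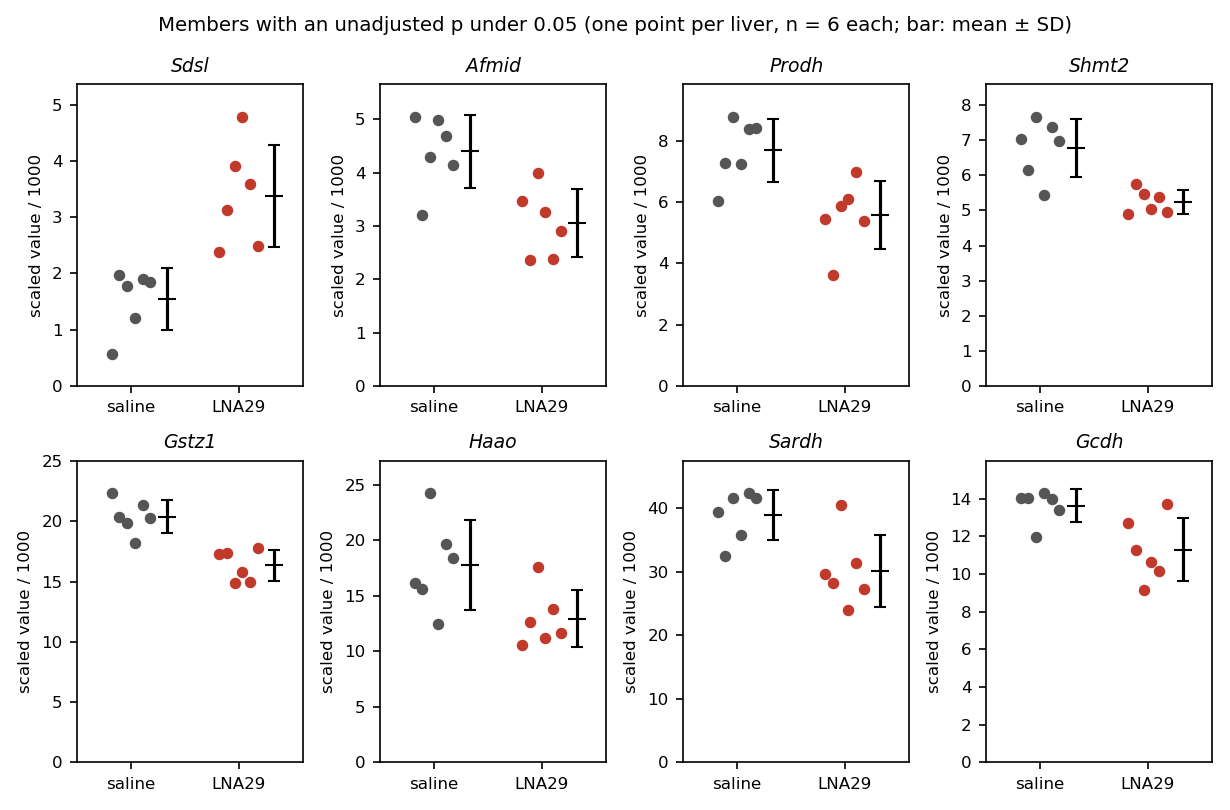
Each panel plots the scaled value divided by 1000 for 1 enzyme with an unadjusted p under 0.05, with saline livers in grey, LNA29 livers in red and bars for the mean ± SD (n = 6 each). The groups are apart for Sdsl, where LNA29 livers begin at 2375 above a saline maximum of 1968, and for Gstz1, while the other 6 panels overlap in at least 1 liver.

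Lysine is degraded through saccharopine by Aass and, after further steps shared with tryptophan, by Gcdh, the glutaryl-CoA dehydrogenase. Gcdh lay between 11947 and 14280 in saline livers with a median of 14016, and between 9151 and 13699 with a median of 10968 in LNA29 livers. Here 4 LNA29 livers were below every saline liver, and the log2 fold change was -0.28 (SE 0.13, limma unadjusted p = 0.0406, adjusted p = 0.606, exact permutation p = 0.0195). The unadjusted limma p of Gcdh was 0.0678 at a common median and 0.103 with TMM scaling. Count models gave 0.114 (edgeR), 0.178 (edgeR without a filter) and 0.0323 (DESeq2). Aass overlapped fully between the groups (log2 fold change 0.19, SE 0.34). Without saline replicate 49 and LNA29 replicate 48, Gcdh was at -0.21 (unadjusted p = 0.104) and Aass at 0.66 (unadjusted p = 0.0145).

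Cysteine is oxidised by Cdo1 to cysteine sulfinate, which Csad turns towards taurine. Csad had the second largest estimate after Sdsl. It lay between 2438 and 9298 in saline livers with a median of 5455, and between 2981 and 12714 with a median of 10698 in LNA29 livers. Although 4 LNA29 livers exceeded every saline liver, the spread was wide, with a log2 fold change of 0.72 (SE 0.36, limma adjusted p = 0.668, exact permutation p = 0.141). Its unadjusted limma p was 0.0647 as scaled, 0.0566 at a common median and 0.0603 with the length covariate. With TMM scaling it was 0.0395 and with array weights 0.0177. Count models gave 0.0454 (edgeR), 0.0219 (edgeR without a filter) and 0.0343 (DESeq2). The adjusted p of Csad was at least 0.313 in every alternative. Cdo1 lay between 73370 and 106906 with a median of 92861, and between 71811 and 104612 with a median of 86906 in LNA29 livers, with a log2 fold change of -0.08 (SE 0.17, 95% interval -0.44 to 0.27).

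Histidine is opened by Hal and passed through urocanate to glutamate and a formimino group that Ftcd hands to folate. None of the 4 genes was called in the main limma test. Hal lay between 11048 and 14525 in saline livers with a median of 12771, and between 9623 and 18212 with a median of 13424 in LNA29 livers. The saline range lay within the LNA29 range, with a log2 fold change of 0.06 (SE 0.16). Uroc1, the urocanate hydratase, had the lowest estimate of the 4 at -0.37 (SE 0.19, unadjusted p = 0.0601) and 4 LNA29 livers below all saline livers, but LNA29 replicate 48 was the highest of all 12 livers. Without that replicate and saline replicate 49 the log2 fold change of Uroc1 was -0.54 (limma unadjusted p = 0.00216, adjusted p = 0.155). With all livers its unadjusted limma p was 0.00428 with array weights, 0.0221 with the length covariate and 0.153 at a common median. Amdhd1 and Ftcd had log2 fold changes of 0.06 and 0.02.

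Leucine, isoleucine and valine are handled mostly outside the liver at the first step, and their oxo acids are oxidised by the branched chain dehydrogenase complex of Bckdha, Bckdhb and Dbt, which Bckdk phosphorylates and switches off. None of the 10 genes was called in the main limma test, and 8 had lower estimates, with a median log2 fold change of -0.14. Dbt, the core of the complex, lay between 578 and 1630 in saline livers with a median of 784, and between 623 and 1162 with a median of 933 in LNA29 livers. LNA29 livers lay within the saline range, with a log2 fold change of 0.10 (SE 0.24, 95% interval -0.40 to 0.60). Bckdk lay between 310 and 598 with a median of 428, and between 226 and 707 with a median of 288 in LNA29 livers. The values of Bckdk rested on 12 to 61 reads and its log2 fold change of -0.38 had an SE of 0.28.

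The remaining genes of the branch were small in their estimates. Hibadh of the valine pathway had the lowest at -0.31 (SE 0.16, unadjusted p = 0.0613), followed by Bckdha at -0.28 (SE 0.16), Mccc2 at -0.21 and Ivd, the isovaleryl-CoA dehydrogenase of leucine, at -0.18. Bckdha was at -0.40 (unadjusted p = 0.0093) without saline replicate 49 and at -0.45 (unadjusted p = 0.00357) without LNA29 replicate 48 as well. With all livers, limma with array weights gave an unadjusted p of 0.00810 for Bckdha, 0.0383 for Hibadh and 0.0400 for Ivd. The length covariate gave 0.00358 for Bckdha and 0.0162 for Hibadh. At a common median the unadjusted limma p was 0.269 for Bckdha, 0.0731 for Hibadh and 0.353 for Ivd. Mccc1, Auh, Hibch and Bckdhb lay between -0.09 and 0.04. Propionyl-CoA, the common product of valine, isoleucine and methionine, is carboxylated by Pcca and Pccb and rearranged by Mut. Their log2 fold changes were -0.30, -0.17 and -0.08, none called, and Pccb was at -0.25 (unadjusted p = 0.0411) without saline replicate 49 and LNA29 replicate 48. The general aminotransferases Gpt and Got1 had log2 fold changes of -0.13 (SE 0.15) and 0.27 (SE 0.25).

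The order of the levels was stable between the groups. Per kilobase of the longest coding transcript, the 7 highest mean levels in both groups were, in order, those of Bhmt, Hpd, Gnmt, Mat1a, Ahcy, Cdo1 and Tat. In saline livers Bhmt came to 355710 per kilobase, Hpd to 209262, Gnmt to 161639 and Mat1a to 103671. Ahcy and Cdo1 were neighbours at 57636 and 57357 and did not differ beyond the spread between livers. The 3 lowest in both groups were Auh, Bckdk and Acmsd, the last at 76.7 per kilobase. Sdsl moved from rank 42 to rank 32 of the 55, and Haao from rank 10 to rank 17.

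**Figure D3:**
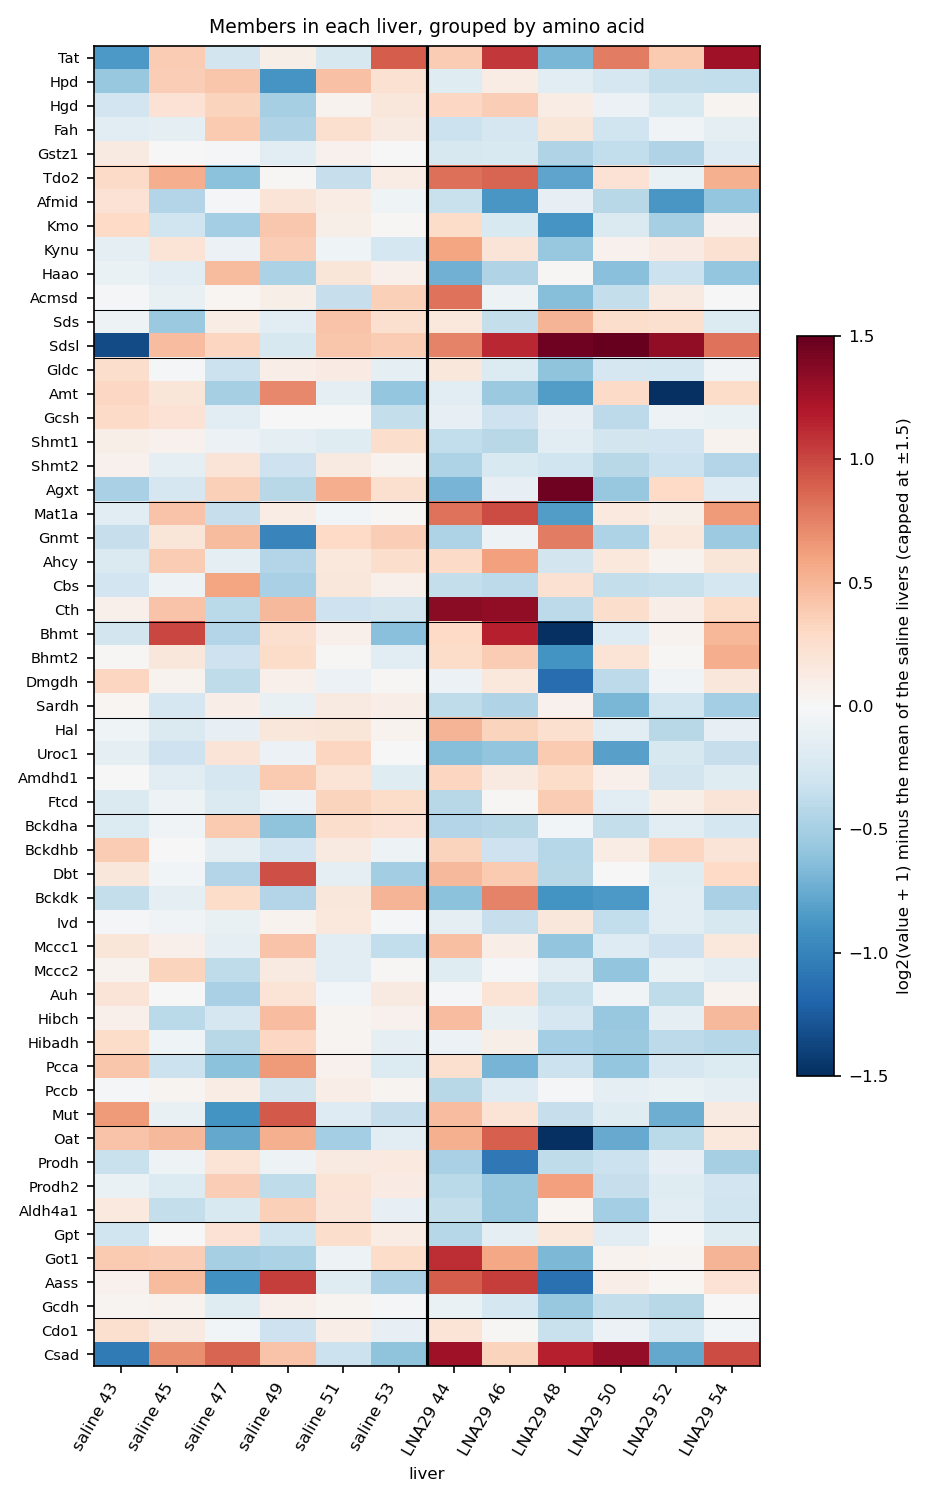
Colours give log2(value + 1) of each enzyme (rows, by amino acid) in each of the 12 livers (columns) minus the mean of the 6 saline livers, capped at 1.5 either way. Sdsl is red in all 6 LNA29 livers, and the columns of saline replicates 47 and 49 and LNA29 replicate 48 hold the most contrasts, with 18, 16 and 22 enzymes lowest and 11, 17 and 16 highest of their 6.

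LNA29 replicate 48 was the lowest of the LNA29 livers for 22 enzymes and the highest for 16. Bhmt was at 119094 there, while the other 5 LNA29 livers lay between 716946 and 1841122. Oat was at 3868 (others 13000 to 40756), Aass at 2094 (others 4660 to 9341) and Tat at 44906 (others 93988 to 174658). In the other direction Agxt, Gnmt, Uroc1 and Prodh2 were higher there than in any other LNA29 liver. Markers of the lobule zones also stood apart in this liver. Of 14 zone markers that are not among the 55, 10 were below and 2 above the other 5 LNA29 livers. Those below were the pericentral genes Glul, Cyp2e1, Gulo, Lgr5, Axin2, Rhbg and Slc1a2 and the periportal genes Arg1, Cyp2f2 and Pck1. Glul was at 9906 (others 24659 to 36671) and Arg1 at 40340 (others 77075 to 169805). The 2 above were both periportal, Gls2 at 9736 (others 6630 to 8562.5) and Ass1 at 99396 (others 58493 to 75049). The periportal gene Cdh1 and the pericentral gene Cyp1a2 lay within the range of the others. Summed over the 8 pericentral markers the levels ran from 343133 to 817183 in LNA29 livers and from 565540 to 1135192 in saline livers. Over the 6 periportal markers they ran from 519698 to 840976 and from 484125 to 672063. Each sum rests mostly on 1 gene. Cyp2e1 had a mean of 522861 in LNA29 and 728480 in saline livers, and Pck1 one of 426846 and 389503.5. Estimates were lower for 6 of the 8 pericentral and 2 of the 6 periportal markers. Their part in the values of the enzymes was not tested.

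Saline replicate 49 was the lowest saline liver for 16 enzymes and the highest for 17. Its deviations followed transcript length, with a Spearman rho across the 55 enzymes of 0.43 and of 0.51 across 12164 genes, which are not independent replicates. In LNA29 replicate 48 the same rho was -0.27 and -0.24, and in saline replicate 47, the lowest saline liver for 18 enzymes and the highest for 11, it was -0.39 and -0.34. In saline replicate 49 the short transcripts of Hpd and Gnmt were at 149820 and 79620, below the other 5 saline livers, and the long ones of Aass and Dbt were at 9340 and 1630, above them. Not every enzyme followed the trend. The long transcripts of Cbs and Bckdk were at 19790 and 310, below the other 5, and those of Hal and Sardh lay within their range. Length here is that of the longest annotated coding transcript, and the form expressed in these livers was not determined. With the length trend as a covariate, 15 enzymes passed an unadjusted p of 0.05, 2 higher (3.27% of all genes) and 13 lower (9.02%).

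**Figure D4:**
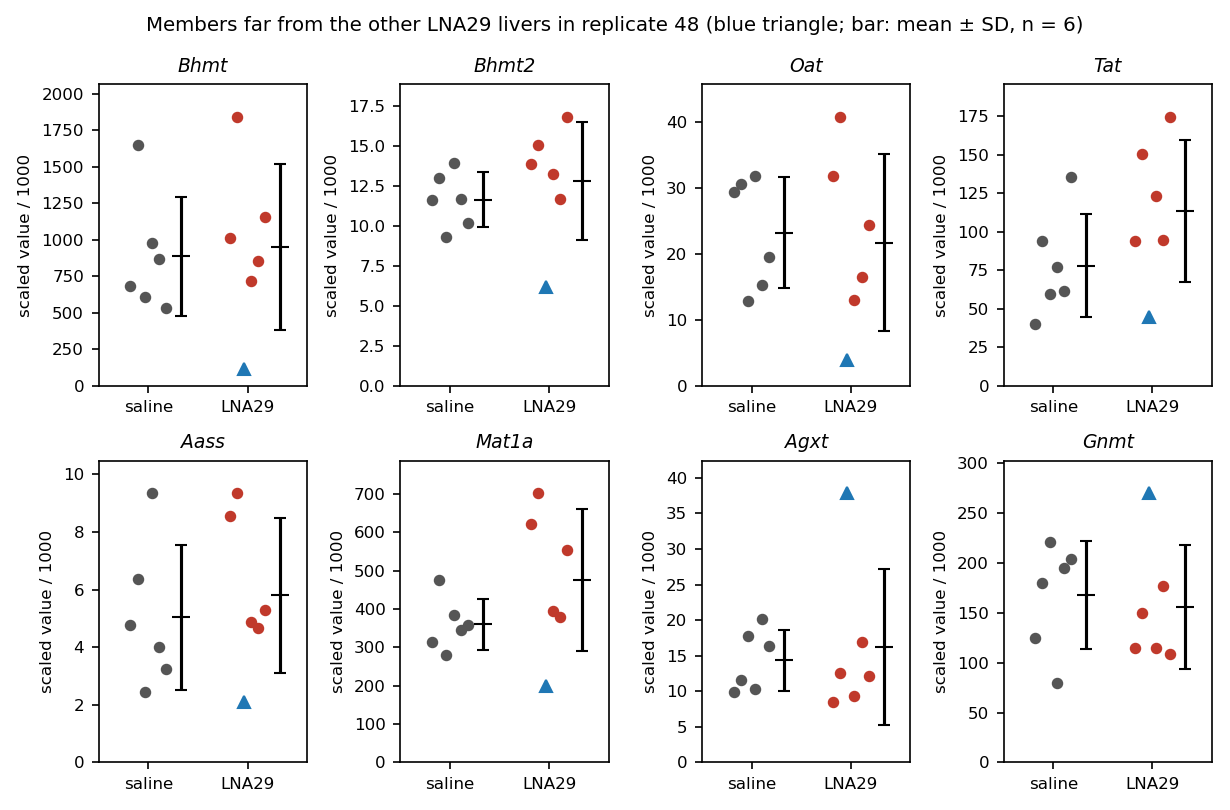
Each panel plots the scaled value divided by 1000 of 1 enzyme in the saline livers (grey), the LNA29 livers (red) and LNA29 replicate 48 (blue triangle), with bars for the mean ± SD (n = 6 each). Bhmt, Bhmt2, Oat, Tat, Aass and Mat1a are lowest of the LNA29 livers in that replicate, and Agxt at 37830 and Gnmt at 269585 are highest.

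Other enzymes of amino acid metabolism formed a second list of 47 genes. Of these 44 were tested, and Bcat1, Tdh and Dao had at most 1 read in any liver. None had an adjusted p under 0.05. At an unadjusted p under 0.05, 11 were lower and none higher, where 5.97% of all genes were lower and 1.95% higher, and 36 of the 44 had lower estimates (81.8%, against 65.5% of the 55 enzymes and 61.4% of all genes). The median log2 fold change of the 44 was -0.24. Counts at other scalings are not given for this list or for the regulators below. A common median raised estimates by 0.045 on the log2 scale. Among the 55 enzymes it left 2 lower at an unadjusted limma p under 0.05, where the main test had 7. Pipox, which oxidises pipecolate and sarcosine in peroxisomes, lay at 6434 ± 553 in saline livers and 4600 ± 437 in LNA29 livers without overlap (log2 fold change -0.48, SE 0.12, limma adjusted p = 0.140). Glud1, the glutamate dehydrogenase that releases the ammonia collected from most amino acids, lay at 16885 ± 2819 and 12636 ± 1199, also without overlap (log2 fold change -0.41, SE 0.13). Got2, the mitochondrial partner of Got1, had a log2 fold change of -0.32 (SE 0.12), and Chdh, which makes betaine from choline, one of -0.78 (SE 0.26). The others were Hoga1, Mmab, Acad8, Sqrdl, Ido2, Suox and Mthfd1.

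Of 14 regulators of these pathways, 2 were lower and 1 higher at an unadjusted p under 0.05, where 5.97% of all genes were lower and 1.95% higher. Gcgr, the glucagon receptor, had a log2 fold change of -0.40 (SE 0.13, limma adjusted p = 0.315), Cebpa, a hepatocyte transcription factor that drives many of the enzymes, one of -0.40 (SE 0.17) and Atf4, the factor of the amino acid response, one of 0.36 (SE 0.17, unadjusted p = 0.0498). Nr3c1, the glucocorticoid receptor, had -0.59 (SE 0.38), Klf15 -0.11 and Hnf4a -0.05. Marker lists of other liver cells overlapped between the groups in their summed levels. Kupffer cell markers came to between 4672 and 8316 in the saline group and between 4464 and 10918 in the LNA29 group, endothelial markers to between 4492 and 5120 and between 3849 and 5110, and stellate cell markers to between 4281 and 4940 and between 3927 and 5548. Among the Kupffer, endothelial, stellate, bile duct and lymphocyte markers, Marco was the only one at an unadjusted p under 0.05. Their part in the values of the enzymes was not tested.

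The inhibitors act on 3 miRNAs that share a seed, bases 2 to 8, printed here in capitals because its complement was searched for in the enzymes (RefSeq, GRCm38.p6).
mmu-miR-29a-3p: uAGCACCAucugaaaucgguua
mmu-miR-29b-3p: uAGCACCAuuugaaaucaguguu
mmu-miR-29c-3p: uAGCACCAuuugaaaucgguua
The complement of the seed, TGGTGCT, stood in the longest 3′ UTR of 10 of the 55 enzymes (18.2%) and of 15.5% of the tested genes with a UTR, in transcripts of GENCODE M21. With the shorter match to bases 2 to 7 the shares were 21.8% and 33.4%, and the UTRs of the enzymes were shorter, with a median of 692 bases against 1141. The 10 were Mat1a, Tdo2, Bhmt, Dbt, Cdo1, Auh, Gcsh, Gstz1, Uroc1 and Amt, each with 1 match. Neither Sdsl nor Csad was among them. In Mat1a, Bhmt and Gcsh the match was followed by A, a form that miRNAs are known to favour, as in 3.29% of the tested genes. Dbt is shown beside them because it was reported as a target of miR-29b in cultured cells. All 4 lie in the last exon, and capitals mark the match.
Mat1a, chr14:41122788-41122794, plus strand: caggtggctttcTGGTGCTaggtta
Bhmt, chr13:93617356-93617362, minus strand: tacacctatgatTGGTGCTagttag
Gcsh, chr8:116981873-116981879, minus strand: tgttccagtgtcTGGTGCTaggtat
Dbt, chr3:116548430-116548436, plus strand: gggcttccattaTGGTGCTgagatc
The coordinates are those of GRCm38, while the authors' values rest on mm9. Estimates were lower for 7 of the 10 enzymes with a match and for 29 of the 45 without one, and the medians were -0.13 and -0.15. Of all tested genes with a match the median log2 fold change was -0.04, and -0.10 without one. The 4 enzymes printed had log2 fold changes of 0.31, -0.16, -0.19 and 0.10, and the 95% interval of each included 0.

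Exons of some of the 55 enzymes overlap those of other genes in GENCODE M21, and the sources used here do not state that strand was used in counting. Of the 8 enzymes at an unadjusted p under 0.05, Sdsl, Haao, Prodh and Gcdh had no such overlap. Afmid overlaps Gm20708, a protein coding gene on the same strand, for which no value is given here. Afmid also overlaps Tk1, which was at 434 ± 202 in saline and 341 ± 243 in LNA29 livers. Afmid itself was at 4398 ± 683 and 3061 ± 641. Gstz1 overlaps Pomt2, which was at 666 ± 53.0 in saline livers where Gstz1 was at 20396 ± 1381. Shmt2 overlaps Ndufa4l2, which was at 83.5 ± 63.7, and Sardh overlaps an antisense transcript that is not listed in the table. Sds, the denominator of the ratio for Sdsl, overlaps Plbd2, which was at 9283 ± 2538 in saline livers and 9141 ± 1866 in LNA29 livers where Sds was at 17034 ± 3880 and 18201 ± 3937.

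The methods selected genes by a ratio of means of 1.5 or more and a one-tailed p, not adjusted, of 0.05 or less. By this rule 2 of the 55 enzymes (3.64%) were selected, where 5.84% of all genes were. They were Sdsl and Csad, with log2 ratios of means of 1.13 and 0.70, both higher in LNA29 livers. The 7 enzymes with lower values at an unadjusted p under 0.05 in limma had ratios between 0.696 and 0.828 and so did not reach that size.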

How the data were processed

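Polyadenylated RNA of 12 livers was sequenced as single reads. The authors used MapSplice2 for mapping and RSEM for reads per gene (mm9, per the labels; versions not given in the sources used here) and deposited 1 table of signal values, which are reads scaled to an upper quartile of 1000 with genes without reads at 1. Left unused were the authors' means, fold changes and p-values, and 2 columns of values without a name. Reads were recovered from the 1-read step of each liver (91.8% to 93.6% of values whole within 0.02) and rounded for count tests.

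Values were tested as log2(value + 1) with limma 3.58.1 in R 4.3.3 (trend on the mean), for the 12486 genes whose mean reached 10, and p-values were adjusted over all of them by Benjamini-Hochberg. Fold changes are on that scale. It was chosen in place of the study's one-tailed test. The exact two-sided permutation test used all 924 divisions of the livers (scipy 1.17.1, Python 3.11.15). Each liver is from a separate mouse. Alternatives were pseudocounts of 0.1 and 10, filters, scalings, array weights, robust and trend-free fits, edgeR 4.0.16, DESeq2 1.42.0, a length covariate and leaving out livers. On simulated reads with 200 changed genes (log2 size 1.5), limma recovered 186 among 187 called. Those reads held no length trend, no liver that stood apart and no smaller changes. Recovery of the smaller differences seen in most enzymes was not tested. All 55 enzymes are named; values per liver are given for those at an unadjusted limma p under 0.05 or without overlap, and for 12 first or rate-setting enzymes. Named besides, after their values were seen, are livers and enzymes that stood apart. The members and lists were chosen with earlier results of these data known. Transcript lengths and UTRs are from GENCODE M21 (GRCm38).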

Additional observations from a re-analysis of the deposited data

Results flagged for a closer look

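In each group of 6 livers, the gap of the highest or lowest liver to its neighbour was compared with the range of log2 values (Dixon's 95% limit). Of 110 groups, 8 had such a liver, where chance gives about 5.5. LNA29 replicate 48 accounted for 4 of them. Bhmt was at 119094 there against at least 716946 in the other 5 LNA29 livers, and Bhmt2 at 6170 against at least 11679. Cbs was at 32340 against at most 22918, and Prodh2 at 14774 against at most 8472. LNA29 replicate 50 was low for Mccc2, at 589 against at least 787.5. Saline replicate 47 was low for Auh, at 526 against at least 717, and for Gcdh, at 11947 against at least 13373. Saline replicate 49 was low for Pccb, at 4760 against at least 5687.5. The cause was not tested.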

How the results depend on the processing

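Across 26 alternatives the log2 fold change kept its sign in 41 of the 55 enzymes, and the 14 whose sign changed had main estimates of at most 0.344 in size and no unadjusted p under 0.05 there or in the alternative that turned the sign. The number with an adjusted p under 0.05 was 0 except with edgeR without a filter (1), DESeq2 (1) and the length covariate (2), and 0 without each liver in turn. The number with an unadjusted p under 0.05 was 8 in the main test, where 7.91% of all genes passed. It was 4 at a common median (7.12% of all genes), 5 with edgeR without a filter (6.46%) and 15 with the length covariate (12.3%). With array weights it was 18 (10.8%), and without saline replicate 49 and LNA29 replicate 48 it was 22 (10.6%). Leaving out that pair was a choice made, like the fit without a trend, after the data were seen. Without each liver the number ran from 6 to 13. The lowest was without LNA29 replicate 50 (6.90% of all genes) and the highest without LNA29 replicate 48 (8.28%). Lower estimates numbered 33 to 38 without each liver, and the median log2 fold change ran from -0.17 to -0.11. With DESeq2 the median was -0.057, where the median of all genes moved by 0.12 from -0.09 to 0.03. The median of the enzymes minus that of all genes was -0.05 in the main test and -0.09 with DESeq2. With the seed match followed by A, 3 enzymes were counted in place of 10. The cause of these moves was not tested. No paired analysis was possible because the animal numbers are not shared between the groups. Depth limits Bckdk, Acmsd and Amt most, which had 12, 7 and 10 reads in their thinnest livers.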
